A study of Mus musculus with 6 samples.

Results

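The control RELM-α macrophages are represented by 3 of the 6 libraries of the study, those titled WT replicates 1, 2 and 3. They were chosen by their titles alone, with no use of measured values. RNA was taken from macrophages of the mouse peritoneal cavity, the space around the abdominal organs. Cells were washed out of mice of the CAIA model, which the labels give only as an abbreviation, and red blood cells were lysed. Macrophages with RELM-α on their surface were sorted by flow cytometry and plated in culture before RNA was extracted. The study set control cells beside cells deleted for PU.1, to ask how this factor bears on ferroptosis, in which iron and oxidised lipids kill the cell. The labels give no strain, age, culture time or number of animals for the controls, and do not say how the control cells were treated in place of the deletion. Sorting for RELM-α, culture and the CAIA model are therefore shared by all values given here. The labels do not tie the 3 libraries to different animals or cultures, and the SD between them may be technical.

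Macrophages take up dying cells, microbes and debris and break them down in lysosomes, acidic vesicles filled with proteases (the cathepsins), lipases and glycosidases. Iron released from engulfed red cells is stored in ferritin or exported, and lipid is stored, burned or passed to lipoproteins. In the peritoneal cavity, large resident macrophages, which depend on the factor GATA6, are usually told apart from smaller cells derived from monocytes. RELM-α, encoded by Retnla, belongs to the resistin-like secreted proteins and is a common marker of macrophages that respond to the cytokines IL-4 and IL-13. Retnla and Gata6 were not analysed here, so the gate could not be checked on its own gene.

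The libraries held 18033122, 18081143 and 17610236 counts in WT replicates 1, 2 and 3. Levels are given as TPM, reads per transcript length scaled to the same total in every library, so that genes can be compared with one another. Of the 15469 protein-coding genes listed, 10471 (67.7%) had a mean of at least 1 TPM, 1218 (7.87%) at least 100 TPM and 123 (0.795%) at least 1000 TPM. The median gene stood at 7.13 TPM. Counts of list members given below are to be read beside these shares of all genes. Across genes, log2(TPM + 1) correlated between pairs of libraries at Pearson's r of 0.990 to 0.996, a description only, since genes are not independent replicates. All pairs differed by more than sampling noise, so each library was kept as 1 replicate.

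WT replicate 3 stood apart from the other two. It held the highest of the 3 values in 63.6% of the 6853 genes with a mean of at least 10 TPM, against 15.6% for WT replicate 1 and 20.9% for WT replicate 2. The lowest value was in WT replicate 1 in 52.6% of these genes, in WT replicate 2 in 26.2% and in WT replicate 3 in 21.2%. The difference went with transcript length. In the longest tercile of these genes, the median log2 ratio to the gene's own mean was -0.14 in WT replicate 1, -0.08 in WT replicate 2 and 0.20 in WT replicate 3, and 96.1% of the genes lay above their mean in WT replicate 3. In the shortest tercile the medians were 0.005, 0.017 and -0.026. The transcript length that the deposited counts and TPM imply for a gene can differ between libraries. The terciles rest on lengths derived from WT replicate 1 alone. The part that RNA quality or library preparation had in this pattern was not tested. The plot of ratios by length shows that values of long genes in WT replicate 3 are to be read with this shift in mind.

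**Figure D1:**
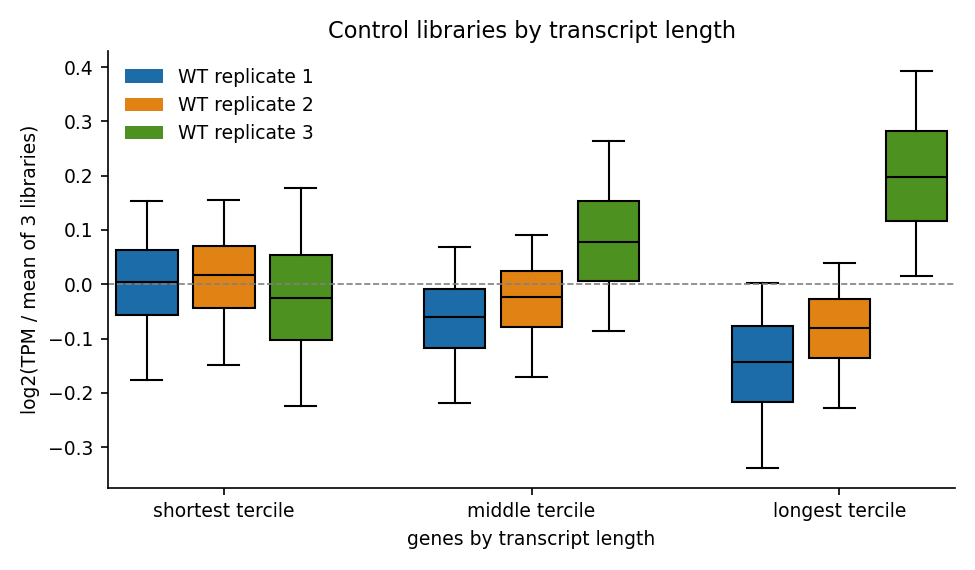
Log2 ratio of a gene's TPM in each WT library to its mean over the 3 libraries, for genes with a mean of at least 10 TPM split into terciles of transcript length; boxes run from the 25th to the 75th percentile with a line at the median, and whiskers cover the 5th to the 95th percentile. The 3 libraries nearly coincide for short genes, and for long genes WT replicate 3 lies at 0.198 and WT replicate 1 at -0.142.

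Ferritin, lysozyme and lysosomal proteases took the largest shares of the control transcriptome. Fth1, the heavy chain of the iron store ferritin (gene ID 14319; GRCm38 chromosome 19, 9980600 to 9985111, on the plus strand), measured 68055, 60509 and 58717 TPM in WT replicates 1, 2 and 3, a mean of 62427 ± 4956 TPM (SD, n = 3). Lyz2, the lysozyme that macrophages secrete against bacterial walls (gene ID 17105, chromosome 10, 117277541 to 117282272, minus strand), was at 60980, 58093 and 58017 TPM. Ftl1, the ferritin light chain (gene ID 14325, chromosome 7, 45457944 to 45459886, minus strand), was at 53664, 48720 and 45598 TPM. The ranges of Fth1 and Lyz2 overlapped over the libraries, although Fth1 was the higher in each. Ftl1 lay below both in each library. These 3 genes held 17.1 ± 1.06% of all TPM, the first 10 genes 29.3 ± 1.05% and the first 50 genes 41.2 ± 1.26% (SD, n = 3). Ferritin genes have many near-identical pseudogenes and Lyz2 a close paralog, Lyz1 (2425 ± 159.1 TPM), and how shared reads were counted is not known, so these levels are uncertain to that extent.

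Among the 25 most abundant genes outside the ribosomal proteins, 4 lysosomal proteins followed closely. Ctsd (cathepsin D, an aspartic protease) was at 24354, 27041 and 26121 TPM and Ctsb (cathepsin B, a cysteine protease) at 19249, 20368 and 20113 TPM. Psap, whose product is cut into the saposins that help to degrade sphingolipids, was at 19533, 20955 and 19826 TPM. Ctss, cathepsin S, which trims the invariant chain of MHC class II, was at 11974, 13277 and 13616 TPM. Apoe, the apolipoprotein that carries cholesterol out of macrophages, was at 26629, 24147 and 20541 TPM, and its range overlapped those of Ctsd and Psap. Gpnmb, a glycoprotein of lysosomes and phagosomes, was at 11044, 11497 and 12157 TPM. Tmsb4x (thymosin beta 4, which binds actin monomers), Prdx1 (a peroxiredoxin that reduces peroxides), and Lgals3 (galectin-3, which marks damaged lysosomes) lay between 7207 and 8189 TPM in all 3 libraries. The remaining 13 genes ranged from 5572 TPM for the elongation factor Eef1a1 down to 2477 TPM for the complement subunit C1qc. They included the signalling adaptor Tyrobp, the fatty acid carrier Fabp5, the MHC class I genes H2-D1 and B2m, the lysosomal membrane proteins Cd63 and Cd68, the proton pump subunit Atp6v0c, the oxidase subunit Cyba and Mmp12, the macrophage elastase. H2-D1 belongs to a family of near-identical class I genes, so its level of 4773 ± 203.1 TPM is uncertain. Of the 24 pairs of neighbours in this order, 17 had overlapping ranges over the 3 libraries. Ranges alone thus often do not resolve the order. Within single libraries, Ctss exceeded Gpnmb in each, while Apoe exceeded Ctsd in WT replicate 1 only.

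**Figure D2:**
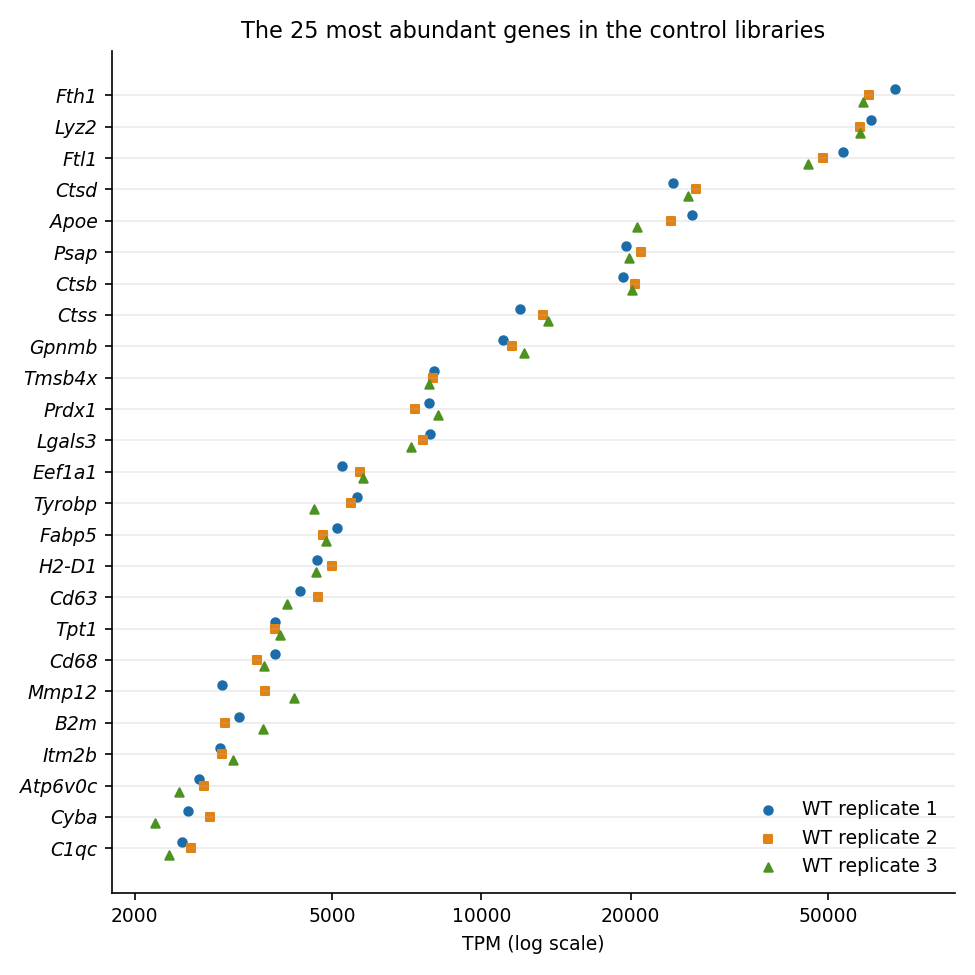
TPM (log axis) of the 25 most abundant genes in WT replicates 1, 2 and 3, ribosomal protein and predicted genes left out; each symbol is 1 library. Fth1, Lyz2 and Ftl1 lie above all others, and Mmp12 spreads from 3001 to 4198 TPM.

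Mmp12 varied more than the other genes of this group. Its values of 3001, 3658 and 4198 TPM gave a coefficient of variation of 16.6%, against 1.25% for Tmsb4x. Ribosomal protein genes, the other abundant group, held 8.61 ± 0.632% of TPM (SD, n = 3), and 82 of 85 listed reached 1 TPM, with a median of 942.5 TPM. Rps27, at 3302, 2749 and 2649 TPM, and Rpl10, at 2648, 2611 and 2636 TPM, were the most abundant. In 66 of the 85 the lowest value was in WT replicate 3, as it was in 21.2% of all genes at 10 TPM or more, and their summed share was 9.02%, 8.94% and 7.89% in the 3 libraries. Many ribosomal protein genes have processed pseudogenes, so single levels among them are uncertain.

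The libraries carried the markers of macrophages at high levels. Of the 6 markers given for these cells, Fth1, Ctss and Cd68 exceeded 1000 TPM. Cd68, a lysosomal sialomucin, was at 3829, 3524 and 3636 TPM. Csf1r, the receptor for the survival factor CSF1, was at 621.6, 639.3 and 684.2 TPM. Spi1, which encodes PU.1, the ETS factor that macrophages need to form, was at 385.4, 417.3 and 369.7 TPM. Adgre1, the adhesion GPCR long used to stain mouse macrophages, was at 327.2, 334.5 and 381.4 TPM. Each of these was stable between libraries, with a highest value at most 1.17 times the lowest.

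All 18 pan-macrophage genes were at 1 TPM or more and 15 of 18 (83.3%) at 100 TPM or more, against 67.7% and 7.87% of all genes, with a median of 1024 TPM against 7.13 TPM. Tyrobp (5223 ± 539.5 TPM), an adaptor that couples receptors without signalling domains to the kinase Syk, came next after Lyz2, and Fcer1g, another such adaptor, was at 2386 ± 129.3 TPM. All 3 chains of the complement protein C1q were abundant: C1qc at 2477 ± 122.5 TPM, C1qb at 2275 ± 139.1 TPM and C1qa at 779.5 ± 60.3 TPM. Among the lowest, the Fc receptor Fcgr1 was at 66.3 ± 3.72 TPM, Mertk, a receptor for dying cells, at 64.8 ± 14.3 TPM, and Aif1, an actin-bundling protein, at 41.2 ± 2.57 TPM.

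The promoters of these genes are shown because the core motif bound by PU.1 was frequent in them. RefSeq promoters (GRCm38.p6) were matched for 11 of the 18 genes, and GAGGAA on either strand (TTCCTC on the other) lay within 250 bases upstream of the start in 8 of the 11 (72.7%). The same motif lay in 24.9% of the promoters of genes at 100 TPM or more and in 23.3% of all 32851 promoters. It lay in 37.5% and 43.8% of those of the lysosomal and lipid-associated lists described below. For the 25 most abundant genes it was 31%, so the motif also lay in these other sets, at lower shares. The pan-macrophage share rests on 11 promoters only. The sets also share genes: Cd63 is in the lysosomal and lipid-associated lists and among the 25 most abundant genes. The mean GC content was 51.7% for the pan-macrophage genes, 59.4% for genes at 100 TPM or more and 53.2% for all promoters. A match is a description of the letters, not a measured binding site. Windows of 80 bases upstream of the start in the most abundant genes with a match, 5′ to 3′ on the gene's strand, carry the match in capitals. Starts are those of RefSeq transcripts, and the window of Cd63 lies inside the deposited gene span.
Cd63 (chr10:128909250-128909329, plus strand): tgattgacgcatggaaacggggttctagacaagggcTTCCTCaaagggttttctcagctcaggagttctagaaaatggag
Cd68 (chr11:69666341-69666420, minus strand): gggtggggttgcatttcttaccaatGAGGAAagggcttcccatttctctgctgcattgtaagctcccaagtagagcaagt
C1qc (chr4:136893064-136893143, minus strand): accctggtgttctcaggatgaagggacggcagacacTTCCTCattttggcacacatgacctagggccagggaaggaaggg
C1qb (chr4:136886201-136886280, minus strand): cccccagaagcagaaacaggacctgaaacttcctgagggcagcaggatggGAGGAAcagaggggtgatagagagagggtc

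Genes that mark the large resident macrophage of the peritoneum were low. Of 14 listed in the table, 5 (35.7%) reached 1 TPM, none reached 100 TPM and the median was 0.262 TPM. F10, coagulation factor X, was the only one above 10 TPM, at 30.3, 50.6 and 50.7 TPM. The integrin ligand Icam2 was at 2.27, 1.91 and 2.73 TPM and the phosphatidylserine receptor Timd4 at 0.52, 0 and 0.14 TPM. Vsig4, a complement receptor of resident macrophages, was at 5.89, 0.44 and 1.12 TPM, and its mean of 2.48 TPM dropped to 0.78 TPM without WT replicate 1. Rarb, a retinoic acid receptor, had no count in any of the 3 libraries; 3 counts over the libraries, the limit that a count of 0 allows, correspond to 0.0558 CPM (counts scaled by library size), counting error only. Monocyte-derived markers were mostly low as well: 5 of 13 reached 1 TPM with a median of 0.96 TPM. That count rests on values close to the threshold, with 10 of 13 at 0.5 TPM or more, 3 at 5 TPM or more, and 4 to 7 at 1 TPM when 1 library was left out. Here Itgax, the integrin chain CD11c, was the exception at 116.7, 187.3 and 217.9 TPM, while the chemokine receptor Ccr2 was at 1.02 ± 0.215 TPM and Ly6c2 at 0.44, 1.95 and 0.49 TPM. The labelled source is peritoneal, and the lists of both peritoneal types had medians under 1 TPM.

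Genes linked to alternative activation were split. Of 17 in the table, 9 (52.9%) reached 1 TPM, against 67.7% of all genes. The transglutaminase Tgm2, at 153.7, 149.7 and 156.4 TPM, was 1 of 2 that reached 100 TPM. The other was Stat6, the factor that IL-4 activates, at 103.1, 105.7 and 119.9 TPM. The mannose receptor Mrc1 was at 56.3, 67.7 and 92.9 TPM, the factor Egr2 at 40.8, 62.2 and 62.8 TPM and the receptor chain Il4ra at 30.2, 29 and 30.3 TPM. Several widely used markers of this state were low. Arginase, Arg1, had values of 0, 0.14 and 0 TPM, and the chitinase-like Chil3 was at 1.3, 1.47 and 2.28 TPM. Pdcd1lg2, Ccl22 and Ccl24 were each under 1 TPM. Mgl2 and Cd163 were also under 1 TPM, at means of 0.33 and 0.37 TPM.

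Inflammatory mediators reached 1 TPM in 13 of 23 listed (56.5%), against 67.7% of all genes, with a median of 3.12 TPM. Tgfb1, a cytokine that restrains inflammation, led with 321.8, 333.4 and 321.6 TPM, and the chemokines Ccl6, Ccl4, Ccl3 and Ccl9 lay between 65.7 and 136.7 TPM on average. Tnf was at 15, 17.3 and 16.7 TPM. Il1b, at 0.77, 0.7 and 0.35 TPM, and Nos2, at 0, 0.05 and 0 TPM, were low in all 3 libraries, and Il12b and Cxcl9 were listed at 0. Interferon-stimulated genes were broadly detected but low, 16 of 18 with a median of 3.76 TPM, apart from the membrane proteins Ifitm2, Ifitm3 and Bst2 between 162.4 and 441.2 TPM. MHC class II genes were intermediate. Cd74, the invariant chain, was at 209.4, 281 and 236.6 TPM, and H2-Aa, a class II chain, at 81.2, 113.5 and 99.6 TPM, while Ciita, the master regulator of the class, was at 0.733 ± 0.206 TPM. In all 6 class II genes above 10 TPM, WT replicate 1 held the lowest and WT replicate 2 the highest value.

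The lists of lysosomal and lipid-handling genes were detected throughout and stood among the most abundant. All 27 lysosomal genes were at 44.2 TPM or more, 25 of 27 (92.6%) reached 100 TPM against 7.87% of all genes, and their sum was 106772 ± 4034 TPM (SD, n = 3), or 10.7% of the total. After the cathepsins D, B and S, the carboxypeptidase Ctsz was at 2236, 2527 and 2225 TPM. The membrane protein Lamp1 was at 1998, 2084 and 2281 TPM. Lgmn, the asparaginyl endopeptidase legumain, was at 1412, 1525 and 1517 TPM. Lipa, the acid lipase, was at 1711, 1666 and 2157 TPM, and Grn, the precursor of granulins, at 1737, 1729 and 1685 TPM. Ctsc, cathepsin C, was the lowest of the list at 44.2 ± 4.17 TPM.

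Many lysosomal genes carry the E-box bound by the MiT/TFE factors, which coordinate lysosome formation, and their promoters are shown for that reason. Of 24 RefSeq promoters (GRCm38.p6) matched for 19 of the 27 genes, 5 (20.8%) held CACGTG, which reads the same on both strands, within 250 bases upstream of the start. It lay in 9.99% of the promoters of genes at 100 TPM or more and in 6.02% of all promoters, at mean GC contents of 54.9%, 59.4% and 53.2%. The longer form TCACGTGA, which contains it, lay in 2 of the 24 (8.33%). It lay in 2.1% of the promoters of genes at 100 TPM or more and in 0.785% of all promoters. Lamp1 held 4 copies in its window and Ctsd 2 within 250 bases. The 5 windows of 80 bases, with each copy in capitals, are given 5′ to 3′ on the strand of the RefSeq promoter. For Ctsl that strand is minus, whereas the authors' deposited strand is plus. Starts are those of RefSeq transcripts, and the windows of Lgmn, Ctsl and Ctsa lie inside the deposited gene spans.
Ctsd (chr7:142387882-142387961, minus strand): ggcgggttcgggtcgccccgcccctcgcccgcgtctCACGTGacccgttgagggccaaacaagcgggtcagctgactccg
Lamp1 (chr8:13159081-13159160, plus strand): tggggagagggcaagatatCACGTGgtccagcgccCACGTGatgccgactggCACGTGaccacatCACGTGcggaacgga
Lgmn (chr12:102439098-102439177, minus strand): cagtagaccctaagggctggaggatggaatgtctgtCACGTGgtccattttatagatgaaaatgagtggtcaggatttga
Ctsl (chr13:64370691-64370770, minus strand): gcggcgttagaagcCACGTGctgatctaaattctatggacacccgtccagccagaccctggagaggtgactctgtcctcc
Ctsa (chr2:164833693-164833772, plus strand): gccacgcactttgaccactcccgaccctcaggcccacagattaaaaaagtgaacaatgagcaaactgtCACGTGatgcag

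The 4 factors of that family were all measured. Tfe3 was at 90.4, 93.8 and 96 TPM, Tfeb at 44, 50.6 and 45 TPM, Mitf at 26.3, 28.7 and 37 TPM and Tfec at 18.8, 15.7 and 18.2 TPM. Their order Tfe3, Tfeb, Mitf, Tfec held in each of the 3 libraries, with no overlap between neighbours. No binding was measured, and the promoter letters were not related to these levels.

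Genes of lipid-associated macrophages, a state described in fat tissue and atherosclerotic plaques, were all at 38.3 TPM or more, with a median of 1690 TPM, and 16 of 18 (88.9%) reached 100 TPM. Besides Apoe and Gpnmb, the lipoprotein lipase Lpl was at 1864, 1956 and 2523 TPM and the lipid droplet coat Plin2 at 1545, 1503 and 1555 TPM. Trem2, a receptor for lipids and apolipoproteins, was at 1887, 2019 and 1739 TPM. Cd36, a scavenger receptor for oxidised lipoproteins, was at 644.5, 739.3 and 1044 TPM. Spp1, the secreted phosphoprotein osteopontin, was at 1090, 1194 and 1302 TPM. The cholesterol exporters were lower, Abcg1 at 136.4, 138.5 and 169.9 TPM and Abca1 at 29.6, 31.6 and 53.6 TPM, the last with its highest value in WT replicate 3. Of the 18 genes, Lipa and Cd63 are also in the lysosomal list, as are Npc2 and Ctsk.

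**Figure D3:**
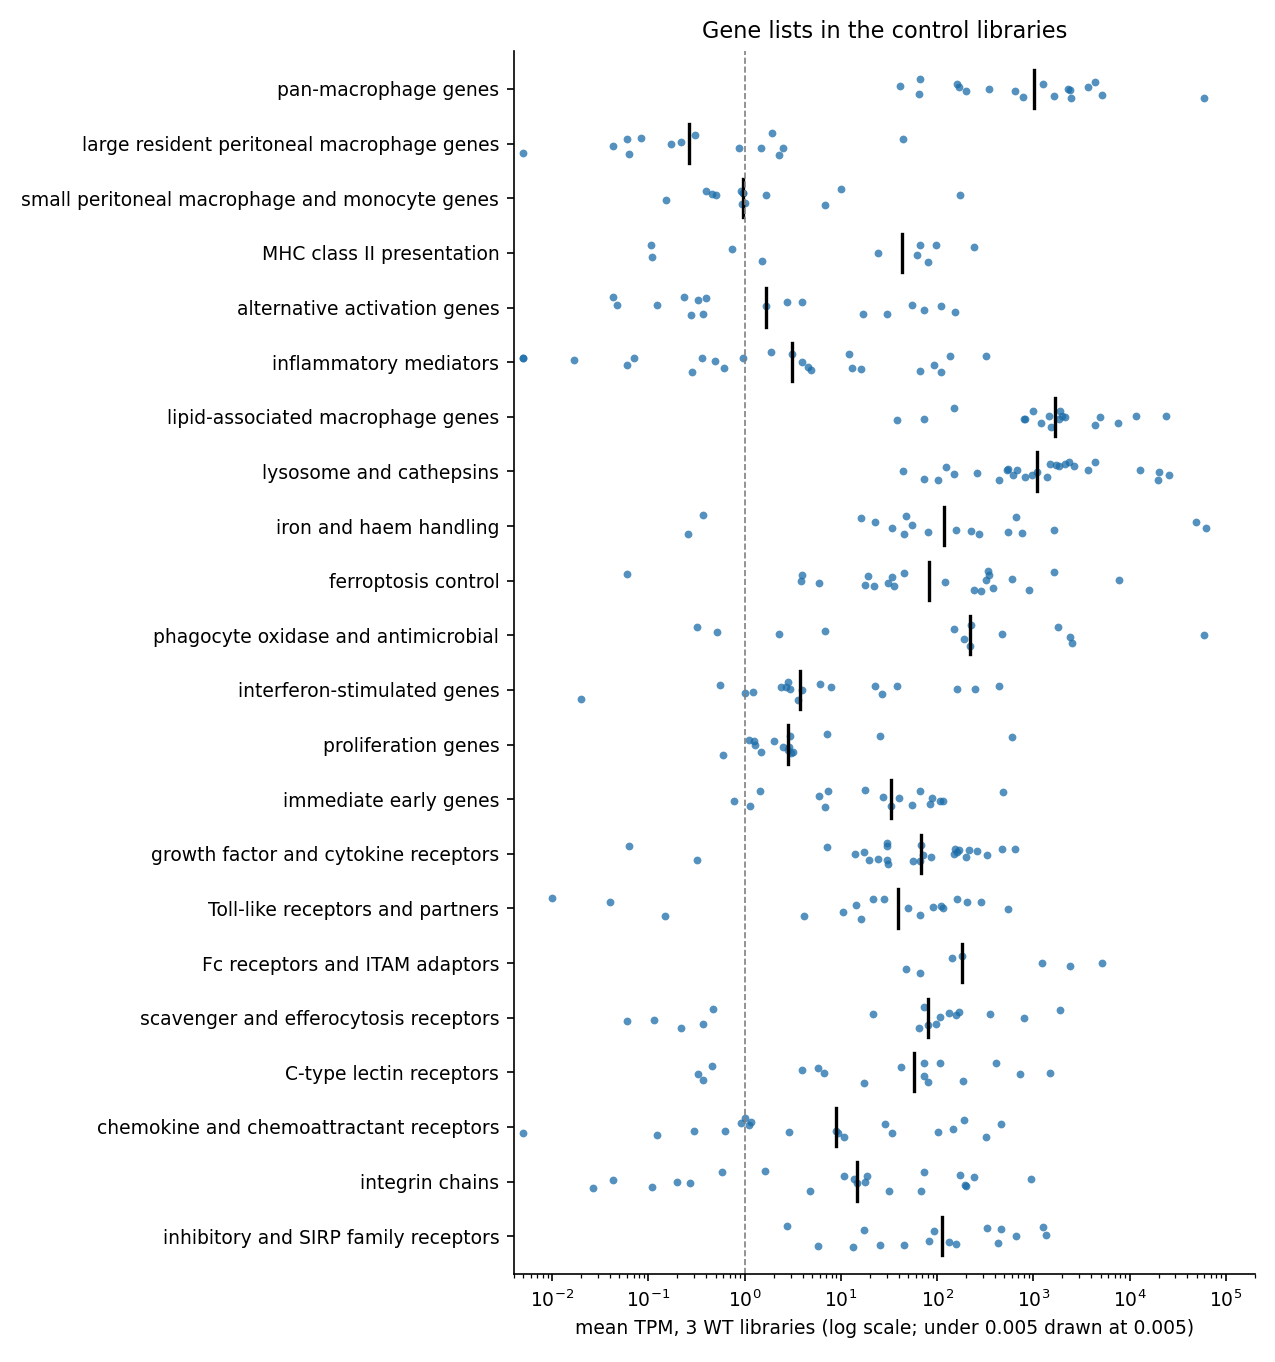
Mean TPM over the 3 WT libraries (log axis) of the members of 22 gene lists; each point is 1 gene, the black bar is the median of the list and the dashed line marks 1 TPM. The medians of the pan-macrophage, lysosomal and lipid-associated lists lie above 1000 TPM, and that of the large resident peritoneal list lies at 0.262 TPM.

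Iron handling was led by ferritin, and 16 of 18 genes of the list reached 1 TPM. Hmox1, haem oxygenase, which opens the haem ring and releases its iron, was at 2055, 1359 and 1555 TPM, highest in WT replicate 1. The haem transporter Slc48a1 was at 822.6, 730.3 and 734.5 TPM and the metal transporter Slc11a1 at 699, 645 and 619.2 TPM. Slc40a1 (ferroportin, the iron exporter) was at 290.7, 215.9 and 303.6 TPM, and Tfrc (the transferrin receptor) at 41.1, 39.2 and 55.1 TPM. Ncoa4, the receptor that delivers ferritin to lysosomes, was at 190.4, 205.3 and 284.1 TPM. The haptoglobin-haemoglobin receptor Cd163 was at 0.92, 0.1 and 0.09 TPM.

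Among genes that control ferroptosis, 21 of 22 reached 1 TPM and 11 of 22 reached 100 TPM. Gpx4, which detoxifies lipid peroxides in membranes, was at 918.5, 967.5 and 806.1 TPM. Of the cystine importer's chains, Slc3a2 was at 381.4, 331 and 323.9 TPM and Slc7a11 at 29.6, 24.2 and 39.7 TPM. Aifm2, a reductase of coenzyme Q, was at 17.5, 19.9 and 19.7 TPM. On the side that feeds lipid peroxidation, the acyl-CoA ligase Acsl4 was at 17.5, 18.8 and 29.6 TPM and the acyltransferase Lpcat3 at 33.9, 30.7 and 36.6 TPM. The lipoxygenases were low, with Alox5 at 5.4, 3.06 and 3.24 TPM and Alox15 at 0.04, 0.08 and 0.06 TPM, whereas the lipoxygenase activator Alox5ap was at 600.5 ± 50.2 TPM. Nfe2l2, the NRF2 factor that drives many antioxidant genes, was at 217.8, 230.4 and 276.9 TPM. Its known target Gclm, a subunit of the enzyme that starts glutathione synthesis, was at 342.8, 238.6 and 286.1 TPM, and another, Nqo1, at 5.9 ± 0.998 TPM.

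The phagocyte oxidase, which makes superoxide in the phagosome, was well represented. The membrane chains Cyba and Cybb were at 2559, 2831 and 2197 TPM and at 364.6, 457 and 599.8 TPM, and the cytosolic chains Ncf1 and Ncf4 and the GTPase Rac2 lay between 149 and 220.1 TPM on average. Mpeg1, a pore-forming protein of macrophages, was at 1580, 1741 and 2051 TPM. The itaconate-producing enzyme Acod1, induced in inflammatory macrophages, was at 2.26 ± 0.0252 TPM.

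Of 149 genes annotated in the authors' deposited table as transmembrane signalling receptors, 66 (44.3%) reached 1 TPM, against 67.7% of all genes, and 18 (12.1%) reached 100 TPM, against 7.87%. The median of the class was 0.5 TPM, against 7.13 TPM for all genes. The annotated class is not complete. Csf1r (648.4 ± 32.3 TPM), Tnfrsf1b (468.4 ± 30.9 TPM) and C3ar1 (466.2 ± 61.6 TPM), at levels above most of the 15 named here, are not in it. The 15 most abundant of the class began with Fcer1g, Trem2 and Fcgr3, the low-affinity Fc receptor at 1137, 1273 and 1326 TPM. Members of the Cd300 family, paired receptors for membrane lipids, made up 5 of the 15: Cd300c2 at 574.7 ± 21.1 TPM, Cd300a at 456.8 ± 12.7 TPM, Cd300lb at 256.3 ± 16.1 TPM, Cd300ld3 at 245.8 ± 68.4 TPM and Cd300ld at 155.7 ± 35.3 TPM. Cd300ld3 had 176.6, 247.4 and 313.5 TPM in the 3 libraries, a highest value 1.77 times the lowest. These genes are close paralogs in a cluster on chromosome 11, and reads shared between them may have been split. Adgre1 and Adgre5, both adhesion GPCRs, Tlr13, Cd72, Cd180, the semaphorin Sema4d and the inhibitory Fc receptor Fcgr2b completed the 15, at 182.4 to 347.7 TPM.

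**Figure D4:**
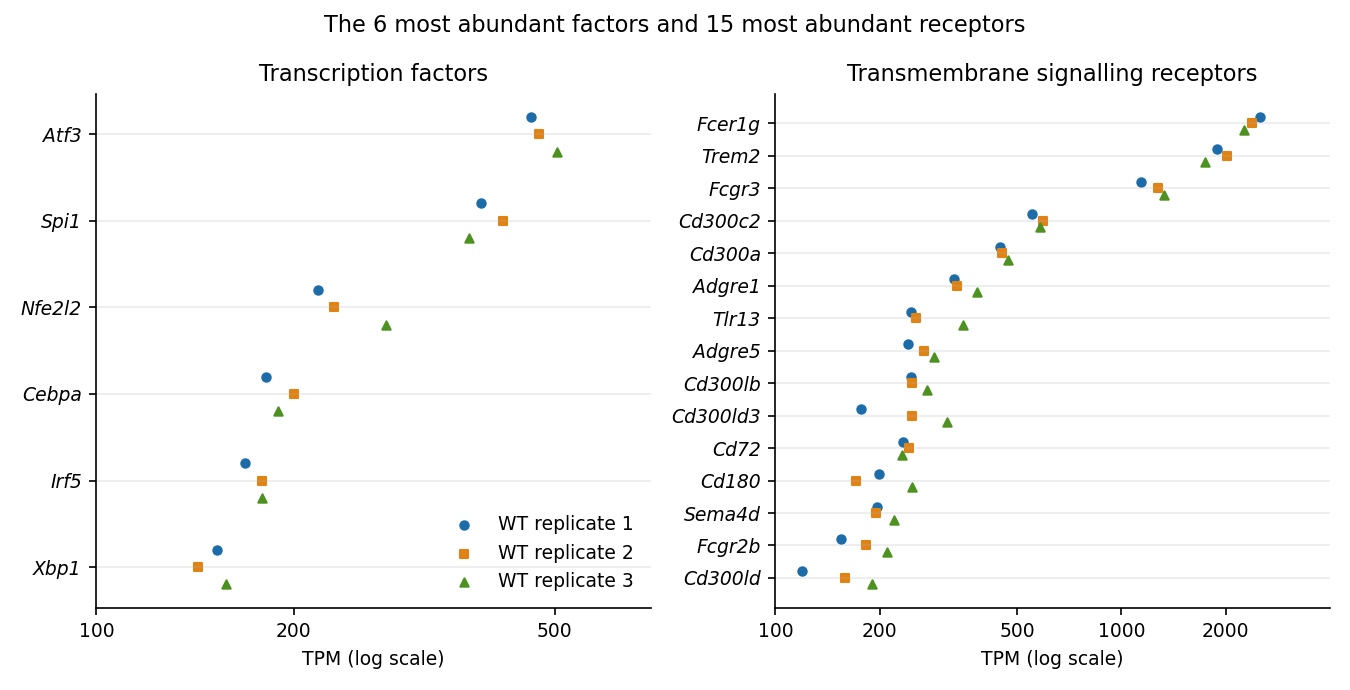
TPM (log axes) of the 6 most abundant genes annotated as DNA-binding transcription factors (left) and the 15 most abundant annotated as transmembrane signalling receptors (right); each symbol is 1 WT library. Atf3 and Spi1 lie above the other factors, and Fcer1g, Trem2 and Fcgr3 lie above 1000 TPM in each library.

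Receptors for growth factors and cytokines reached 1 TPM in 24 of 26 listed. After Csf1r came the TNF receptor Tnfrsf1b at 437, 469.6 and 498.7 TPM and Il10rb, a shared chain of the IL-10 family receptors, at 310.1, 314.1 and 356.7 TPM. The GM-CSF receptor was measured through Csf2ra at 254.4, 272.8 and 249.9 TPM and through the near-identical Csf2rb and Csf2rb2 at 214.2 ± 17.7 and 199.6 ± 23.2 TPM, whose reads may be shared. The interferon-γ receptor chains Ifngr1 and Ifngr2 were at 151.4 ± 3.28 and 153.5 ± 12.2 TPM. For IL-1, both Il1r1 at 0.317 ± 0.14 TPM and the decoy Il1r2 at 0.0633 ± 0.0551 TPM were under 1 TPM.

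The Toll-like receptors differed widely in level, and 15 of the 18 genes listed with their partners reached 1 TPM. Tlr13, which senses bacterial ribosomal RNA, was at 245.8, 254.2 and 348.7 TPM, and the RNA sensors Tlr7 and Tlr8 at 96.8, 92.1 and 138.7 TPM and at 72.1, 84.5 and 115.6 TPM. Unc93b1, the chaperone that carries these receptors to endosomes, was at 534.9, 564.1 and 547.7 TPM. Tlr2, for bacterial lipoproteins, was at 28.8, 27.2 and 28.2 TPM and Tlr4, for lipopolysaccharide, at 18.3, 18 and 29 TPM. Tlr9 was at 9.87, 10.2 and 11.7 TPM and Tlr3 at 3.63, 3.45 and 5.29 TPM. Tlr5, Tlr11 and Tlr12 were under 1 TPM. The endosomal sensors Tlr13, Tlr7 and Tlr8 thus lay above Tlr2 and Tlr4 in each library, and Tlr9 and Tlr3, also endosomal, lay below them. WT replicate 3 held the highest value of Tlr13, Tlr7, Tlr8, Tlr4, Tlr9 and Tlr3, the library in which long transcripts were generally higher.

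C-type lectin receptors, which bind sugars of microbes and dead cells, reached 1 TPM in 13 of 16. Clec4d was at 1605, 1349 and 1507 TPM, and Clec7a, the β-glucan receptor dectin-1, at 566.4, 733.9 and 900.3 TPM. Clec4n, dectin-2, was at 635.9, 282.2 and 314.4 TPM, with WT replicate 1 at 2.25 times the lowest value. In the scavenger list 12 of 17 (70.6%) reached 1 TPM, near the 67.7% of all genes. No gene of that list lay between 1 and 10 TPM. Trem2, Cd36 and the LDL-receptor family member Lrp1 (298.9, 337.1 and 420 TPM) led, and Marco, Tyro3 and Olr1 were under 1 TPM with Timd4 and Cd163. All 16 inhibitory and SIRP family receptors reached 1 TPM. Of these, Lilrb4a was at 1340, 1254 and 1454 TPM and Sirpa, which binds the CD47 signal on other cells, at 1189, 1264 and 1351 TPM. Lilrb4a and Lilr4b (658.7 ± 67.4 TPM) are near-identical neighbours, so the division between them is uncertain.

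Among chemoattractant receptors, those for complement fragments led. C3ar1 was at 443.7, 419 and 535.8 TPM and C5ar1 at 328.5, 321.9 and 316.9 TPM, followed by Cxcr4 at 199.5, 178.7 and 188.1 TPM, the nucleotide receptor P2ry6 at 150.5, 145.6 and 147 TPM and Ccr1 at 84, 96.9 and 123.3 TPM. Cx3cr1 was at 0.907 ± 0.435 TPM, and Ccr7 was listed at 0 in all 3 libraries. Integrin chains reached 1 TPM in 15 of 21 (71.4%), near the 67.7% of all genes. The shared β2 chain Itgb2 was at 793.4, 967.1 and 1046 TPM, and of its α partners, Itgam was at 161.9, 202.6 and 239.4 TPM, Itgax at 174 ± 51.9 TPM, Itgal at 18 ± 0.984 TPM and Itgad at 7.99, 2.95 and 3.28 TPM. Itgad averaged 4.74 TPM, and 3.12 TPM without WT replicate 1. Itgb2, Itgam and Itgax were each lowest in WT replicate 1 and highest in WT replicate 3.

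Of 897 genes annotated as DNA-binding transcription factors, 558 (62.2%) reached 1 TPM but only 15 (1.67%) reached 100 TPM, against 7.87% of all genes. Atf3, a stress-induced factor, was the most abundant at 459.2, 472.7 and 504.6 TPM. Spi1 followed, and its range did not overlap that of Atf3. Nfe2l2 came next, then Cebpa at 181.4, 199.9 and 189.4 TPM and Irf5 at 168.6, 178.6 and 179.2 TPM. The ranges of Xbp1, Cebpb, Irf8, Atf4 and Usf2, between 135.6 and 151.1 TPM on average, overlapped one another in part. Tgif1, Junb, Stat6 and Atf5 closed the 15 at 107.3 to 116.4 TPM. Several of these have known roles in macrophages: Cebpa and Irf8 in their formation and Irf5 in inflammatory gene expression.

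Families of factors differed in how concentrated they were. Within the ETS family, 14 of 21 (66.7%) reached 1 TPM, near the 67.7% of all genes. Spi1, at 390.8 ± 24.3 TPM, lay above the next, Etv3 at 38.3, 40.2 and 46 TPM, in each library. Spic, the ETS factor of red pulp and other iron-recycling macrophages, was at 9.1, 3.97 and 4.29 TPM, and Spib, a close relative of Spi1, at 0.08 ± 0.0436 TPM. Among interferon regulatory factors, Irf5 and Irf8 led, Irf7 was at 3.93 ± 0.586 TPM and Irf4, an IL-4 responsive factor, at 0.397 ± 0.0208 TPM. In the AP-1 and MAF list, 14 of 15 reached 1 TPM, with Maf at 30.5 ± 2.86 TPM. Jun was at 87.6 ± 1.7 TPM and Fos at 84.2 ± 11.4 TPM, and of 17 immediate early genes, a group that cell handling can induce, 16 reached 1 TPM with a median of 32.8 TPM.

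The nuclear receptors, whose ligands include fatty acids and sterols, were all under 100 TPM, and 14 of 18 reached 1 TPM. Rxra, the common partner, was at 84.3, 76.2 and 88.5 TPM and Nr1h2 (LXRβ) at 78.9, 80.7 and 73.2 TPM, with overlapping ranges. Nr1h3 (LXRα) was at 32.3, 40.6 and 37.1 TPM and Pparg at 32.2, 36.8 and 41.1 TPM, which again overlapped. All 7 STAT factors were at 1 TPM or more, led by Stat6, with Stat3 at 44.5 ± 2.31 TPM and Stat5b at 22.2 ± 1.97 TPM. The 5 NF-κB subunits ranged from Rel at 7.83 ± 1.27 TPM to Rela at 72.1 ± 1.38 TPM. Creg1, a lysosomal glycoprotein that was placed in the list of other myeloid factors, was at 1819, 1783 and 1954 TPM. Factors that define other lineages were low: 2 of 17 reached 1 TPM, Tal1 at 4.64 ± 0.666 TPM and Gata1 at 1.73 ± 0.669 TPM.

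Markers of the other cells that a peritoneal wash can hold were examined in 13 lists. In bulk RNA, fewer cells of a type and less RNA per cell cannot be told apart. No mesothelial, fibroblast, adipocyte or mast cell marker reached 1 TPM, out of 4, 6, 3 and 4 listed. A further 5, 2, 2 and 6 markers of these lists were not analysed here. Of the 4 mesothelial markers, 3 were listed at 0. Among 9 B cell markers, 2 reached 1 TPM: Cd22, an inhibitory receptor, at 18.1, 24.3 and 27.6 TPM, and Cd79b at 1.82 ± 0.155 TPM, while Ms4a1, which encodes CD20, was at 0.04 ± 0.0458 TPM. Of 12 T and NK cell markers, Cd4 alone reached 1 TPM, at 11.2, 13.6 and 16.1 TPM, with Cd3e at 0.0733 ± 0.00577 TPM. Of 9 dendritic cell markers only Batf3 did, at 8.2 ± 1.59 TPM, and Flt3 was at 0.0233 ± 0.0208 TPM. Single members of these lists were thus above 1 TPM, while Ms4a1, Cd3e and Flt3 were near 0.

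**Figure D5:**
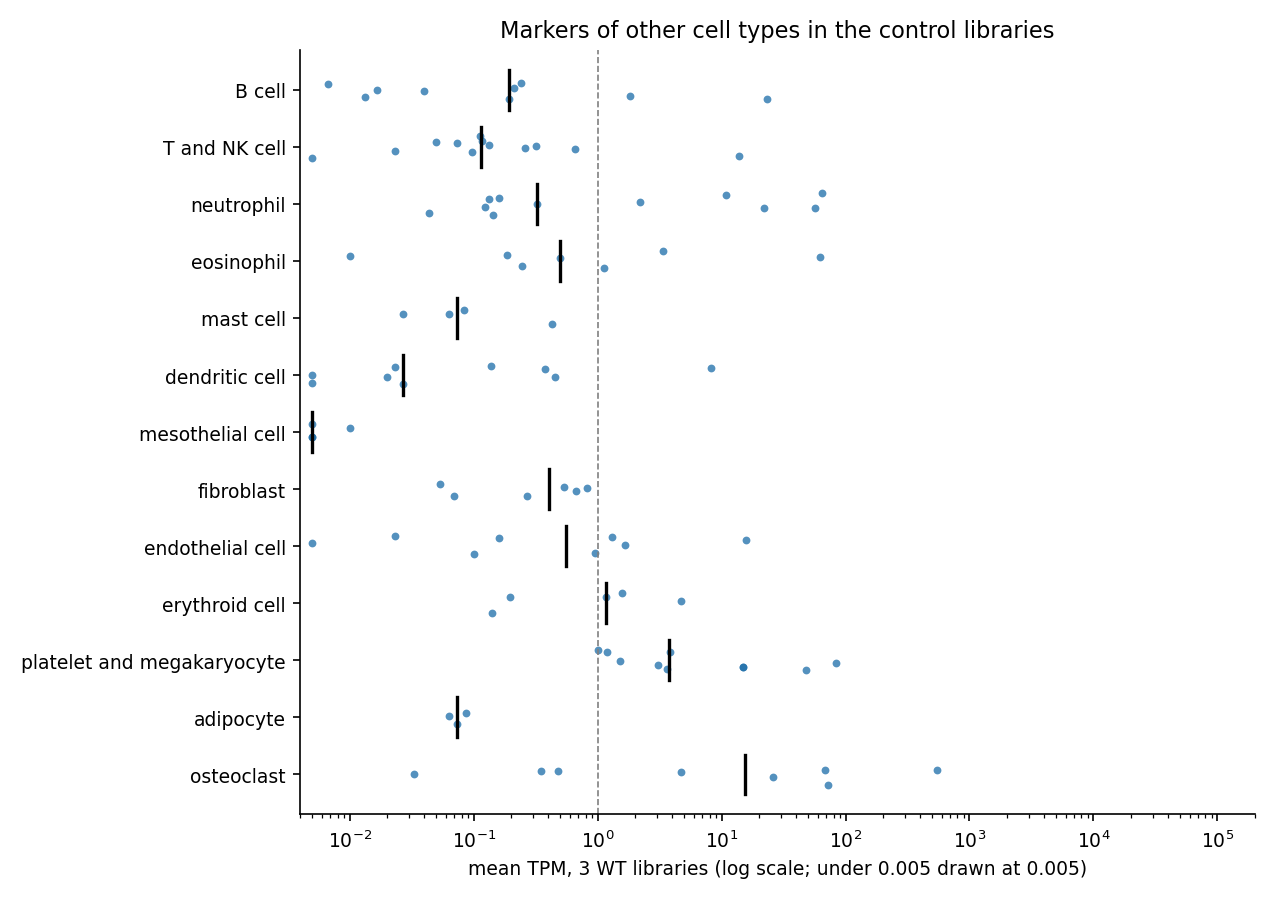
Mean TPM over the 3 WT libraries (log axis) of the markers of 13 other lineages; each point is 1 gene, the black bar is the median of the list and the dashed line marks 1 TPM. All 10 platelet and megakaryocyte markers lie at or above 1 TPM, and no mast cell, mesothelial, fibroblast or adipocyte marker does.

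Platelet and megakaryocyte markers were the exception, with all 10 at 1 TPM or more and 4 at 5 TPM or more. Their sum was 136.5, 212.2 and 180.9 TPM in WT replicates 1, 2 and 3. Pf4 (platelet factor 4) was at 75.4, 96.2 and 81.2 TPM, and Ppbp (the precursor of platelet basic protein) at 30.7, 60.9 and 53.5 TPM. The integrin chain Itga2b was at 9.32, 18.8 and 16.1 TPM, Treml1 at 11.8, 17.1 and 15.6 TPM and the von Willebrand factor receptor chain Gp1ba at 1.86, 4.89 and 4.86 TPM. In 9 of the 10 the lowest value was in WT replicate 1, the library that was lowest in 52.6% of all genes at 10 TPM or more, and Gp9 was lowest in WT replicate 3. Of 8 endothelial markers 3 reached 1 TPM. Vwf, made by endothelium and megakaryocytes and listed here as an endothelial marker, was at 12.1, 17.2 and 17.9 TPM. Kdr was at 1.39, 1.65 and 1.91 TPM and Egfl7 at 2.13, 0.95 and 0.83 TPM. Below 1 TPM, Pecam1 was at 0.953 ± 0.204 TPM and Cdh5 at 0.1 ± 0.105 TPM. F5 and Selp, listed as resident macrophage genes and also made by megakaryocytes, were at 1, 2.21 and 2.57 TPM and at 0.61, 1.02 and 1.01 TPM. Whether platelets carried with the sorted cells had a part in these values was not tested.

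Osteoclast and granulocyte markers were mixed. Of 8 osteoclast markers 5 reached 1 TPM, led by Atp6v0d2, a proton pump subunit that macrophages also make, at 419, 521.8 and 686.7 TPM. Acp5, the tartrate-resistant phosphatase, was at 42.3, 83.5 and 77.4 TPM. Ctsk was at 72.8 ± 8.61 TPM, Nfatc1 at 26.1 ± 1.99 TPM and Dcstamp at 4.75 ± 0.442 TPM. Ocstamp, Oscar and Mmp9 were under 1 TPM. Of 11 neutrophil markers 5 reached 1 TPM. S100a8 was at 61.6, 68.5 and 62.4 TPM and Csf3r at 55.5, 55.5 and 57.5 TPM. Mmp8 was at 22.4, 20 and 23.7 TPM, S100a9 at 12.3, 11.3 and 8.91 TPM and Ngp at 2.18 ± 0.497 TPM. The other 6, Mpo, Elane, Ltf, Camp, Retnlg and Cxcr2, were each under 1 TPM. Among 7 eosinophil markers, the ribonuclease Ear2 was at 48.9, 67.2 and 69.5 TPM, with near-identical paralogs that make the level uncertain, while Siglecf was at 3.34 ± 1.01 TPM and Prg2 at 0.493 ± 0.205 TPM. Haemoglobin transcripts, a sign of red cells, were low, with Hba-a1 at 3.07, 6.35 and 4.68 TPM.

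Between the 3 libraries, the spread of single genes was small beside the differences between genes. Among the 6853 genes at 10 TPM or more, the median coefficient of variation was 8.42%, with 5th and 95th percentiles of 1.98% and 23.7%. Leaving out WT replicate 3 brought the median to 3.94%. The biological coefficient of variation, the spread beyond counting error by edgeR, was 10.6%, and 5.66% without WT replicate 3. Of 6761 such genes with predicted genes left out, 444 (6.57%) had a highest value at least 1.5 times the lowest, and 16 (0.237%) at least 2 times.

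In the 10 genes with the largest such ratio, WT replicate 3 held the highest value in 7, WT replicate 2 in 2 and WT replicate 1 in 1. Lnpep, an aminopeptidase, was at 7.3, 10.1 and 20.9 TPM, and Ago2, the slicer of RNA interference, at 8.85, 12.2 and 24.1 TPM. Xylt1, Tnks, Arhgap6 and Alg10b were likewise lowest in WT replicate 1 and highest in WT replicate 3, as was Bcl2a1c, which rested on 26, 40 and 54 counts. Nrgn, at 8.3, 22.5 and 17.7 TPM, was lowest in WT replicate 1 and highest in WT replicate 2. Smim27, at 36.7, 43 and 20.3 TPM, was a short gene lowest in WT replicate 3, on 39, 45 and 20 counts. Clec4n, described above, was the only one of the 10 above 100 TPM and the only one highest in WT replicate 1.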

How the data were processed

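Bead-captured messenger RNA of sorted, cultured peritoneal macrophages was read on an Illumina NovaSeq machine, as the labels' protocols say. Groups were read from the titles, and only the 3 WT libraries were used. The submitters' processing notes name fastp 0.18.0 and the build GRCm39, but the deposited coordinates match GRCm38: of 15426 genes matched by gene ID to RefSeq GRCm38.p6, 13131 had the same start. The sources used here do not name the aligner, counting program, strand setting or annotation.

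The authors deposited, per the file headers, 1 table of expected counts (unnormalized read estimates for each gene in each library) and, beside them, FPKM and TPM. Between 5.07% and 5.2% of the counts of a library were not whole, and they were rounded for edgeR. TPM was used as deposited for all levels, and FPKM for an alternative order of genes. No rows without a gene name and no columns of other samples were present. No mitochondrially encoded gene was analysed here.

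Values are means and SD of 3 libraries, and no groups were compared and no test was made. Depth was 17610236 to 18081143 counts per library. The biological coefficient of variation came from edgeR 4.0.16 (R 4.3.3; intercept only, genes kept by filterByExpr, TMM factors) and was tested on simulated data. DESeq2 1.42.0 gave other size factors. Named genes were the 6 given markers, the 25 most abundant genes, the 15 most abundant transcription factors (annotated by GO and by the table's own factor column) and the 15 most abundant signalling receptors (annotated by GO), the 10 most variable genes at 10 TPM or more, the 10 KEGG pathways of highest summed TPM, and members of 47 gene lists (584 genes, of which 38 were not analysed here). The members and lists were chosen with earlier results of these data known. Alternatives were other thresholds, read counts or FPKM in place of TPM, other scaling, and each library left out. Promoters came from RefSeq. Some genes that these rules and lists name are not reported here.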

Additional observations from a re-analysis of the deposited data

How the results depend on the processing

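The number of genes detected, 10471 at a mean of 1 TPM, ranged from 8496 at 5 TPM to 11037 at 0.5 TPM. List members at the threshold, 402, ranged from 333 to 426 at these settings. Single lists moved more: at 5 TPM the count was 8 in place of 13 for inflammatory mediators, 8 in place of 16 for interferon-stimulated genes, 3 in place of 14 for proliferation genes and 1 in place of 5 for large resident peritoneal genes. The 50 most abundant genes held 31.5% of read counts in place of 41.2% of TPM, and 44.6% of TPM when ribosomal protein genes were left out; ribosomal protein genes held 2.39% of read counts in place of 8.61% of TPM. Read counts, unlike TPM, are not divided by transcript length. Of the 50 most abundant genes, 30 stayed in the first 50 by read count and 50 by FPKM. Leaving out 1 library gave 3.94% to 9.38% for the median coefficient of variation and 5.66% to 13.3% for the biological one, both lowest without WT replicate 3. Among the 427 named genes at 1 TPM or more, the mean of Vsig4 (2.48 to 0.78 TPM) and that of Itgad (4.74 to 3.12 TPM), both without WT replicate 1, were the ones that moved over 1.5 times when 1 library was left out. The share of mitochondrially encoded genes was not run. No paired analysis was possible because only the WT libraries were used and no groups were compared. Levels under about 1 TPM rest on few counts, and the 3 libraries limit every SD.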

Other observations

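Pcna, the sliding clamp of DNA replication and repair, stood apart from the other proliferation genes. It was at 592.5, 574.1 and 646.7 TPM, while the other 14 genes of that list had means between 0.593 and 25.8 TPM. Mki67, at 1.56, 1.99 and 2.48 TPM, Top2a, at 2.08, 2.39 and 3.09 TPM, and Cdk1, at 2.99, 2.7 and 2.83 TPM, mark dividing cells. Mcm2 and Mcm5, which with Pcna act in DNA replication, were at 7.15 ± 0.629 and 2.87 ± 0.277 TPM. Reads shared with Pcna pseudogenes are possible, since the counting is not described, and this was not tested.

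All 4 Y-linked genes of the list were measured in each WT library. Eif2s3y was at 28.9, 28.2 and 35.3 TPM, Ddx3y at 16.6, 16.6 and 28 TPM, Kdm5d at 6.32, 6.84 and 9.24 TPM and Uty at 6.22, 6.37 and 8.59 TPM, and each was highest in WT replicate 3. Xist was not analysed here.

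By summed TPM, the first KEGG pathways annotated in the authors' deposited table were Necroptosis at 12.1 ± 0.869% of the total, Ferroptosis at 11.8 ± 0.909%, Lysosome at 11.7 ± 0.443% and Mineral absorption at 11.6 ± 0.922% (SD, n = 3). Fth1 and Ftl1 alone made up 92% of the Necroptosis sum, 94.3% of the Ferroptosis sum and 96% of the Mineral absorption sum. In the Lysosome sum the first pair of genes, Ctsd and Psap, made up 39.1%, and 94.4% of its 126 genes reached 1 TPM. The other pathways of the first 10 were Coronavirus disease and Ribosome, both led by ribosomal protein genes, Apoptosis and Tuberculosis, led by Ctsd, Salivary secretion, of which Lyz2 and Lyz1 made up 92.4%, and Alzheimer disease, led by Apoe.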
